A study of Mus musculus with 21 samples.

Results

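Immediate early genes are the genes a cell transcribes within minutes of a signal, from factors that are already present. The 10 genes described here, Fos, Fosb, Jun, Junb, Egr1, Egr2, Egr3, Ier2, Nr4a1 and Dusp2, were matched by gene symbol among the 56953 genes of the count files, without use of their values. RNA was sequenced from sorted B cells, the subsets B-1a, B-1b and B-2, taken from the peritoneal cavity of wild type (WT) mice and of mice with a global knockout of TET2 (TET2-KO), both on the C57BL/6 background. TET2 is an enzyme that oxidizes methylated cytosines. The knockout allele lacks exons of the catalytic region in every cell of the body, so effects of other TET2-KO cells on the B cells cannot be told apart from effects inside them. The 21 ultra-low input libraries split into B-1a (4 WT, 4 TET2-KO), B-1b (4 WT, 3 TET2-KO) and B-2 (2 WT, 4 TET2-KO). The mice received no stimulus that the labels name, and every sample went through cell isolation, staining and sorting, which the labels do not time.

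In B cells, engagement of the antigen receptor activates the kinases ERK, JNK and p38. They phosphorylate factors such as ELK1, which works with SRF at promoters that hold CArG boxes. The AP-1 genes Fos, Fosb, Jun and Junb, the zinc finger genes Egr1, Egr2 and Egr3 and the orphan nuclear receptor gene Nr4a1 are induced. The same genes answer to serum, stress, heat and tissue dissociation, and their RNAs are short-lived. Dusp2 encodes a nuclear phosphatase that takes the phosphates off MAP kinases again, and Ier2 encodes a small nuclear protein induced with the others.

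The CArG box, the letters CC, then 6 letters A or T, then GG, is the sequence on which serum response factor sits. It is shown here because it is the DNA element by which several of these genes are classed together. In the 500 bases before the annotated start of the canonical transcript (GENCODE vM39, GRCm39, both strands), 3 of the 7 members with a usable promoter entry held at least 1 CArG box, against 2.76% of 21770 protein-coding promoters. The 3 were Fos, Fosb and Egr2, and the box nearest the start of each stands in capitals in 60 bases of its strand.
Fos, chr12:85520330-85520389, plus strand, 328 to 269 bases upstream: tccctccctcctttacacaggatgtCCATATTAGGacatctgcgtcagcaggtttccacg
Fosb, chr7:19044208-19044267, minus strand, 291 to 232 bases upstream: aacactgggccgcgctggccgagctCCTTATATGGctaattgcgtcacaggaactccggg
Egr2, chr10:67373602-67373661, plus strand, 90 to 31 bases upstream: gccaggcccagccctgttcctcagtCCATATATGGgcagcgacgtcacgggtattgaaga
Egr2 held 2 boxes in its window. The EGR site GCGNGGGCG was found before Fosb and Jun, against 5.45% of promoters, the AP-1 site TGANTCA before Fos, against 12.3%, and the cyclic AMP response element TGACGTCA before none of the 7, against 1.96%. None of the 4 motifs was found in the windows of Junb, Nr4a1 and Dusp2, which says only that these letters are not there.

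The members are compact genes. Their median span is 4698.5 base pairs, against 20212.5 for the 12690 genes with at least 1 CPM (counts scaled to library size) in at least 10 libraries, and 9 of 10 lie below that median. Their median number of separate exon blocks is 3, against 8. Jun and Ier2 have a single block, and Nr4a1 (chr15:101152150-101172676) has the most, 10. Fos lies at chr12:85520664-85524047, Jun at chr4:94937271-94940459 and Dusp2 at chr2:127178079-127180296 in the annotation of the files. The counting took no account of strand. Of the exon bases of Jun, 7.28% lie opposite an exon of Junos, and 7.52% of those of Junb lie opposite an exon of Prdx2, and reads there cannot be told apart by strand.

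Total counts ran from 9667187 to 24152518 per library, with a median of 17425219. Tet2 was at 8.45 to 27.2 CPM in WT and 12.6 to 30.1 CPM in TET2-KO libraries, and a gene-level count, which includes the exons outside the deletion, does not check the genotype. B cell transcripts were abundant in every library. Transcripts of 12 macrophage markers, Lyz2 among them, summed to 4325 to 30450 CPM and those of 5 mast cell markers to 292 to 1218 CPM, and each of these markers reached 1 CPM in some library of every group. Those of 6 erythroid markers summed to 11.3 to 1704 CPM in WT and 1.61 to 30.0 CPM in TET2-KO B-1a libraries. The sums were 0.887 to 150 and 0.340 to 19.0 CPM in B-1b, and 3.45 to 67.0 and 0.644 to 31.8 CPM in B-2 libraries. The 5 WT libraries with the numbers 1 and 2 went against their subset labels by Fcer2a or Cd5. Fcer2a, the CD23 gene that marks B-2 cells, was at 815 CPM in the library labelled B-1a WT 1, at 598 CPM in B-1b WT 2 and at 24.2 CPM in B-2 WT 1, against 480 to 833 CPM in TET2-KO B-2 and 4.61 to 42.6 CPM in TET2-KO B-1 libraries. Cd5, which marks B-1a cells, was at 18.7 CPM in B-1b WT 1, at 5.15 CPM in B-1a WT 1 and at 1.64 CPM in B-1a WT 2, against 15.9 to 22.7 CPM in the B-1a and 2.09 to 5.09 CPM in the B-1b libraries other than WT 1 and WT 2. Tests on WT libraries are therefore given with and without the 5 libraries labelled WT 1 or WT 2. Those 5 also had fewer genes with at least 1 count, 18074 to 19255, against 25898 to 29339 in the other WT libraries. Fits with and without them differ in this too, and its part was not tested.

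Levels of the 10 genes fell into a high and a low set. Per kilobase of exon, over the 16 libraries other than WT 1 and WT 2, Ier2 had a median of 92.5 CPM per kilobase and Junb 82.4, above 94.96% and 94.3% of the expressed genes. Fos followed with 26.2, Jun with 15.8 and Dusp2 with 8.68 CPM per kilobase. Below the median expressed gene, which was at 4.37, lay Egr1 with 2.74, Nr4a1 with 2.28, Egr3 with 1.12, Egr2 with 0.744 and Fosb with 0.261 CPM per kilobase. Ier2 and Junb overlapped in range, from 46.0 to 106 and from 38.9 to 96.0, and so did Fos and Jun, from 6.73 to 48.4 and from 2.86 to 35.3. Junb, Ier2, Fos and Jun together made up 71.9% to 93.4% of the summed CPM of the 10 genes in a library. The sum was lowest in TET2-KO B-2 number 4, at 266 CPM, and highest in B-1b WT 4, at 616 CPM. TET2-KO B-2 number 4 had the fewest total counts, 9667187. Its TMM scaling factor, by which CPM are divided, was 1.54, against 0.753 to 1.25 in the other libraries. The part of this factor in its low values was not tested.

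The spread between libraries differed by gene. Dusp2 ranged 24.2-fold from its lowest to its highest library, Jun 12.3-fold, Fosb 11.9-fold and Fos 8.10-fold, whereas Junb ranged 2.47-fold and Ier2 2.31-fold. Within TET2-KO B-1a, Junb was among the steadiest genes of all, with a standard deviation of 0.03 on the log2 scale against a median of 0.28 over the 8097 genes with a median of at least 10 CPM. In the same 4 libraries Fos had 0.81 and Jun 0.69, wider than 95.1% and 92.4% of those genes. Junb was not steady in every group. In TET2-KO B-2 libraries it had 0.46, wider than 82.3% of those genes. Egr2 and Fosb rest on few counts, between 0 and 91 for Egr2 and between 6 and 65 for Fosb in a library, and their differences are correspondingly uncertain.

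**Figure D1:**
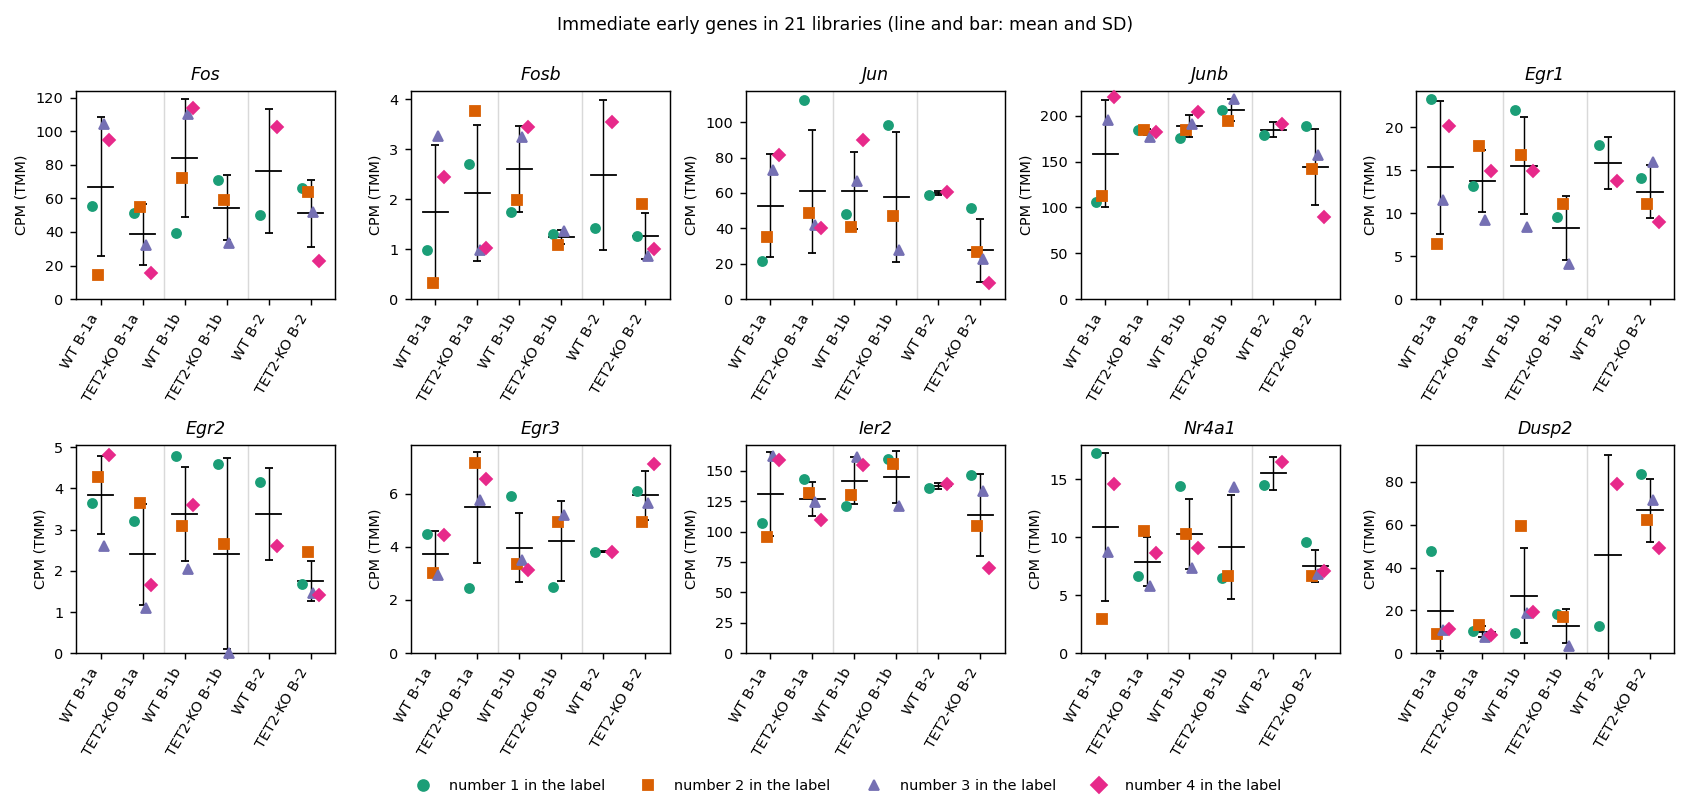
Normalised expression (CPM with TMM scaling, vertical axes from 0) of the 10 immediate early genes in each of the 21 libraries by subset and genotype. Symbols give the number in the library label, lines the group mean and bars the SD. Dusp2 is high in all 4 TET2-KO B-2 libraries (49.2 to 83.6 CPM) and in B-2 WT 4 (78.9 CPM). It is also high in the libraries labelled B-1b WT 2 (59.5 CPM) and B-1a WT 1 (47.6 CPM). Fos is highest in the WT libraries with the numbers 3 and 4.

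The clearest difference among the 10 genes was in Dusp2, the MAP kinase phosphatase gene, between subsets of TET2-KO cells. It stood at 83.6, 62.2, 71.5 and 49.2 CPM in B-2 numbers 1 to 4, at 10.6, 13.3, 7.71 and 8.65 CPM in B-1a numbers 1 to 4, and at 18.1, 16.7 and 3.45 CPM in B-1b numbers 1 to 3. Every B-1 library lay below every B-2 library. Between B-1a and B-2 cells Dusp2 fell by 2.76 on the log2 scale (SE 0.40, adjusted p = 0.00057), which is 6.78-fold. Between B-1b and B-2 cells it fell by 2.43 (SE 0.43, adjusted p = 0.0075), which is 5.38-fold. It was the only member to pass the threshold of 0.05 in either comparison, 1 of 10 in each, where 5.82% of 18555 genes passed for B-1a and 2.15% for B-1b cells. With all 21 libraries in 1 fit, which brings in those labelled WT 1 and WT 2, the B-1b call was lost (adjusted p = 0.15), and with those 5 libraries left out of that fit it passed again (adjusted p = 0.0065). Both comparisons use the same B-2 libraries, and fewer cells with Dusp2 and less Dusp2 RNA per cell cannot be told apart in such bulk samples.

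Dusp2 followed Fcer2a across the libraries and not their labels. In WT cells it was at 47.6, 8.98, 10.9 and 11.3 CPM in the libraries labelled B-1a 1 to 4, at 9.58, 59.5, 18.6 and 19.4 CPM in B-1b 1 to 4, and at 12.8 and 78.9 CPM in B-2 1 and 4. The high values are those of B-1a WT 1, B-1b WT 2 and B-2 WT 4, the 3 WT libraries with the most Fcer2a, which was at 754 CPM in B-2 WT 4. Over the 16 libraries without WT 1 and WT 2, which share the subsets behind both genes, the correlation of Dusp2 with Fcer2a on the log2 scale was 0.91. Over all 21 it was 0.93. With the summed macrophage markers it was 0.19 over the 16. The genes closest to Dusp2 over 21 libraries were Neurl3 (r = 0.95), Ms4a4c (r = 0.95) and Rnf144a (r = 0.94).

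**Figure D2:**
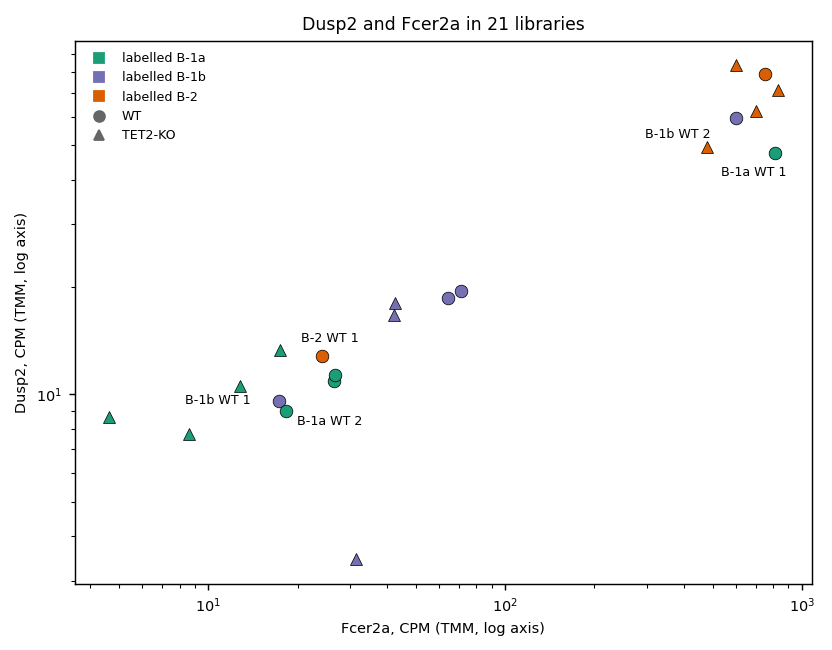
Dusp2 against Fcer2a (CPM with TMM scaling, both axes logarithmic) in 21 libraries, coloured by the labelled subset, circles for WT and triangles for TET2-KO, with the 5 libraries labelled WT 1 or WT 2 named. B-1a WT 1 and B-1b WT 2 lie among the B-2 libraries and B-2 WT 1 among the B-1 libraries.

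Between WT B-1a and B-1b cells, none of the 10 members passed over 4 libraries against 4 (edgeR, 0.0% of 13800 genes called, and 0 members called by DESeq2). By edgeR, 0 members had an unadjusted p under 0.05, against 256 of all genes tested. With WT 1 and WT 2 left out, which leaves 2 against 2, Dusp2 was lower in B-1a cells by a log2 fold change of -0.78 (SE 0.19, adjusted p = 0.032), in a comparison in which 3.31% of 15097 genes passed. In the fit of the 16 libraries, which holds the same 4 WT B-1 libraries, the call was lost (-0.74, SE 0.53, adjusted p = 1.00). The values were 10.9 and 11.3 CPM in B-1a against 18.6 and 19.4 CPM in B-1b cells. The other 9 members did not pass. In the 2 against 2 comparison 6 of the 12 macrophage markers were higher and 4 of 5 B-2 markers lower in B-1a cells, and their part in the Dusp2 value was not tested. In TET2-KO cells the same comparison gave -0.33 for Dusp2 (SE 0.41, adjusted p = 0.90), with the B-1b library number 3 at 3.45 CPM and the other B-1b libraries at 16.7 and 18.1 CPM.

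Jun, which encodes the AP-1 subunit that can pair with itself as well as with FOS proteins, was higher in TET2-KO B-1a than B-2 cells within each pair of libraries that share a number. It was at 113, 48.9, 42.1 and 40.0 CPM in B-1a numbers 1 to 4 and at 51.7, 26.5, 22.7 and 9.13 CPM in B-2 numbers 1 to 4. The groups overlap, but B-1a exceeded B-2 in 4 of 4 pairs, by 0.87 to 2.07 on the log2 scale, the most in number 4. The comparison without pairs gave a log2 fold change of 1.12 (SE 0.54, adjusted p = 0.23). With the number as a block, it gave 1.20 (SE 0.20, adjusted p = 0.0028), and 8.83% of the genes passed. Between B-1b and B-2 cells, whose numbers were not taken as pairs, the log2 fold change was 1.03 (SE 0.58, adjusted p = 0.34), and 0.78 with the number as a block (SE 0.21, adjusted p = 0.076, with 3.59% of the genes passing).

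For Fos the difference had the other sign and did not pass. In TET2-KO cells it was at 51.3, 55.2, 32.1 and 15.8 CPM in B-1a and at 66.2, 64.0, 51.7 and 22.8 CPM in B-2 numbers 1 to 4, lower in B-1a in 4 of 4 pairs. Its log2 fold change was -0.44 without pairs (SE 0.39, adjusted p = 0.53) and -0.49 with the number as a block (SE 0.14, adjusted p = 0.058), and neither passed. Junb was at 177 to 185 CPM in B-1a, 194 to 218 in B-1b and 89.5 to 189 in B-2 libraries. Its log2 fold changes of 0.31 and 0.47 in B-1a and B-1b against B-2 cells did not pass (adjusted p = 0.34 and 0.23). Ier2 gave 0.13 and 0.31 (adjusted p = 0.75 and 0.46).

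The EGR genes and Nr4a1, which report on antigen receptor signaling, did not pass between any pair of TET2-KO subsets. Egr1 was at 9.15 to 17.8 CPM in B-1a, 4.02 to 11.1 in B-1b and 8.93 to 15.9 in B-2 libraries. It was higher in B-1a than B-1b cells in 3 of 3 pairs, with a log2 fold change of 0.75 (SE 0.35, unadjusted p = 0.049, adjusted p = 0.86). This was the only member with an unadjusted p under 0.05 between B-1a and B-1b cells, against 1072 of 18555 genes by edgeR. None of the 10 was called there by edgeR, which called 0.205% of all genes, or by DESeq2. Egr3 was at 2.46 to 7.17, 2.48 to 5.21 and 4.92 to 7.12 CPM in the 3 subsets in that order, and Nr4a1 at 5.81 to 10.5, 6.49 to 14.3 and 6.68 to 9.62 CPM. Egr2 had no count in B-1b number 3, the library in which Egr1 and Dusp2 were also at their lowest of all 21. That library also had the fewest genes with at least 1 count, 17816, against 23913 and 26360 in B-1b numbers 1 and 2. The part of this in its low values was not tested.

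**Figure D3:**
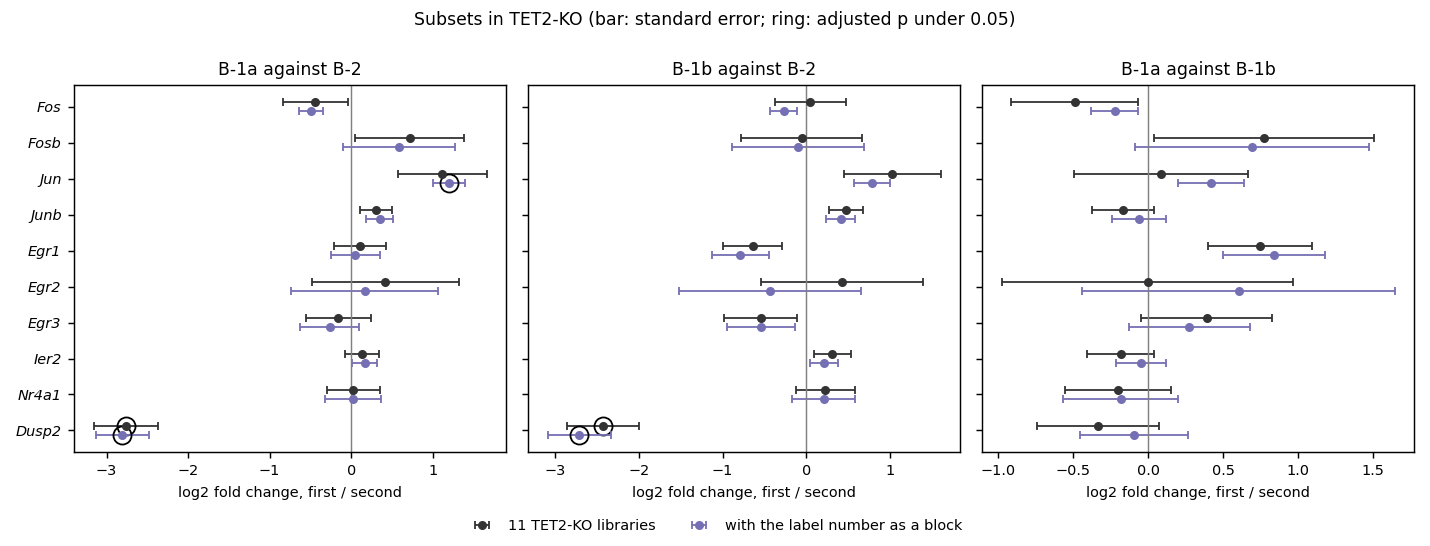
Log2 fold changes (horizontal axes, bars for standard errors) of the 10 genes between subsets of TET2-KO cells, from the fit of 11 libraries and from the same fit with the label number as a block. Rings mark an adjusted p under 0.05, which Dusp2 reached against B-2 cells in all 4 fits shown and Jun in B-1a against B-2 cells only under the block.

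TET2-KO libraries that share a number moved together in Fos and Jun. From the highest to the lowest level of Jun, the label numbers ranked 1, 2, 3 and 4 in B-1a and in B-2 cells, and 1, 2 and 3 in B-1b cells. Fos had its highest values in numbers 1 and 2, then 3, then 4, in all subsets in which those numbers exist, and number 1 exceeded number 4 in B-1a by 51.3 to 15.8 CPM and in B-2 by 66.2 to 22.8 CPM. Ier2 kept the order 1, 2, 3, 4 in B-1a and 1, 2, 3 in B-1b cells, and differed in B-2 cells. The orders of Egr1, Egr3 and Nr4a1 differed between subsets. The summed macrophage markers were 26198, 28968, 12992 and 4839 CPM in B-1a numbers 1 to 4, 13049, 15328 and 6378 in B-1b numbers 1 to 3, and 19365, 19831, 16355 and 4325 in B-2 numbers 1 to 4. They too were lowest in number 4 and next lowest in number 3. Over 16 libraries their log2 level had a correlation of 0.74 with that of Fos, 0.65 with Ier2, 0.61 with Fosb and 0.60 with Jun. It was 0.59 with Egr2, 0.52 with Egr1, 0.42 with Junb, 0.19 with Dusp2, 0.17 with Nr4a1 and -0.39 with Egr3. For the summed mast cell markers the correlations ran from -0.04 with Junb to 0.68 with Egr1. The part of these transcripts in the levels of the members was not tested.

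**Figure D4:**
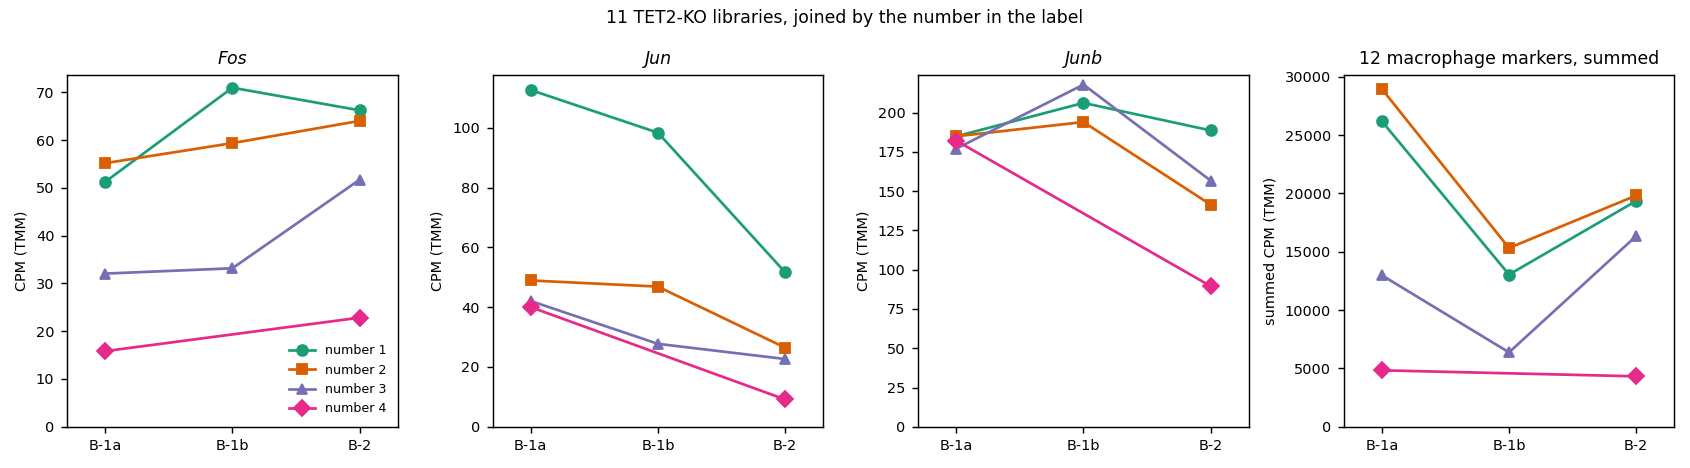
Fos, Jun, Junb and the sum of 12 macrophage markers (CPM with TMM scaling, axes from 0) in the 11 TET2-KO libraries, with lines joining libraries of the same label number across subsets. Number 4, which has no B-1b library, is lowest in Fos, Jun and the marker sum, and Jun is lower in B-2 than in B-1a cells along each of the 4 lines.

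Loss of TET2 was compared within each subset. None of the 10 members passed in B-1a cells, where 0.0503% of 13923 genes did, in B-1b cells, where 0.0% of 14368 did, or in B-2 cells, where 0.0% of 19786 did (edgeR, adjusted p under 0.05). DESeq2 called 0 members in each. In its fits Dusp2 in B-1a, Egr1 in B-1b, and Jun and Nr4a1 in B-2 cells had an unadjusted p under 0.05. The share of all genes at that cutoff by DESeq2 is not given. By edgeR, the number of members with an unadjusted p under 0.05 was 0, 0 and 1, against 1093, 787 and 1754 of all genes tested. The median log2 fold change of the members was -0.07 in B-1a, -0.30 in B-1b and -0.45 in B-2 cells, against 0.02, -0.01 and 0.18 over all genes tested. With WT 1 and WT 2 left out it was -0.33, -0.34 and -0.47, against 0.02, 0.01 and 0.20 over all genes, and no gene passed in any subset. The difference of the TET2-KO effect between the B-1 subsets did not pass for any member either (edgeR interaction, 0.0% of 15972 genes called). In it, 0 members had an unadjusted p under 0.05, against 250 of all genes tested.

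Fos, Egr1 and Egr2 had negative values in all 3 subsets, with all libraries and without those labelled WT 1 and WT 2, and none of them passed. In WT B-1a libraries 1 to 4, Fos was at 55.5, 14.1, 104 and 94.6 CPM, in WT B-1b at 39.6, 72.1, 110 and 114 CPM, and in WT B-2 numbers 1 and 4 at 50.1 and 102 CPM. The WT libraries numbered 3 and 4 are high and those numbered 1 and 2 overlap the TET2-KO libraries, which lay between 15.8 and 71.0 CPM. Log2 fold changes of Fos were -0.78 (SE 0.57, adjusted p = 0.68) in B-1a, -0.61 (SE 0.38, adjusted p = 0.84) in B-1b and -0.56 (SE 0.43, adjusted p = 0.57) in B-2 cells. Without the libraries labelled WT 1 or WT 2 they became -1.36 (SE 0.42, adjusted p = 0.94), -1.04 (SE 0.30, adjusted p = 1.00) and -0.98 (SE 0.46, adjusted p = 1.00), larger but still not passing, with 2, 2 and 1 WT libraries left.

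In all 3 subsets every TET2-KO library had less Fos than every WT library numbered 3 or 4. Of the 10 members, Fos alone had this pattern, where 1.6% of the 12690 expressed genes did, and 0 members had its mirror image, where 0.378% did. TET2-KO libraries that share a number moved together in Fos, and the labels do not say whether they share a mouse. The 3 subsets therefore cannot be counted as independent repeats. Within single subsets, the members below the WT libraries numbered 3 or 4 were Fos, Junb and Ier2 in B-1a cells (3 of 10, against 7.76% of genes), Fos, Fosb and Dusp2 in B-1b cells (3 of 10, against 10.4%), and Fos, Fosb, Jun, Junb, Egr2 and Nr4a1 in B-2 cells (6 of 10, against 20.5%), where a single WT library is left. Above them lay 0 of 10 in B-1a (4.73% of genes), 0 of 10 in B-1b (8.22%) and 1 of 10, Egr3, in B-2 cells (11.2%). The WT libraries numbered 3 and 4 were picked out here only by their match to the subset labels, and what else they share cannot be told apart from the genotype. The heat shock genes Hspa1a and Hspa1b (2 of 11) had the same pattern as Fos. Hspa1b was at 53.6 to 198 CPM in WT numbers 3 and 4 and 0.537 to 17.3 CPM in TET2-KO libraries. Hspa1a and Hspa1b are near-identical copies whose reads can be misassigned. The pattern was also found in the B-2 markers Cr2 and Ccr7 (2 of 5). Of the other lists, it was found in Ppp1r15a (1 of 30 expressed further immediate early genes), Dusp1 (1 of 8 feedback genes) and Cd69 (1 of 14 activation genes).

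Nr4a1, the gene of the receptor NUR77 that is widely used as a reporter of antigen receptor signaling, had the smallest unadjusted p of the members. In B-2 cells it was at 14.5 and 16.5 CPM in WT numbers 1 and 4. In TET2-KO libraries it was at 9.62, 6.68, 6.82 and 7.05 CPM. B-2 WT 1 is among the libraries that went against their subset labels. The log2 fold change was -1.02 (SE 0.25, unadjusted p = 0.0036, adjusted p = 0.53). In B-1a cells, with WT values from 2.91 to 17.2 CPM, it was -0.43 (adjusted p = 0.77), and in B-1b cells -0.12 (adjusted p = 0.95). With WT 1 and WT 2 left out, Nr4a1 gave -1.11 in B-2 (SE 0.37, adjusted p = 1.00), -0.55 in B-1a and 0.17 in B-1b cells, so its sign turned in B-1b cells. Of the EGR genes, Egr1 gave -0.89 in B-1b cells (SE 0.40, adjusted p = 0.84), at 8.40 to 22.0 CPM in WT and 4.02 to 11.1 CPM in TET2-KO libraries, and -0.50 (SE 0.49) without WT 1 and WT 2. Egr3 gave positive values of 0.60 in B-1a, 0.13 in B-1b and 0.66 in B-2 cells, with an adjusted p of at least 0.53 in each, and 0.58, 0.36 and 0.65 without WT 1 and WT 2.

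For Dusp2 the TET2-KO comparison turned on the libraries labelled WT 1 and WT 2. Its log2 fold changes were -0.93 in B-1a (SE 0.51, adjusted p = 0.64), -1.05 in B-1b (SE 0.67, adjusted p = 0.84) and 0.55 in B-2 cells (SE 0.60, adjusted p = 0.65), and without those libraries -0.14, -0.58 and -0.22. With B-2 WT 1 as the only WT library, so that its spread is assumed to be that of the TET2-KO libraries, Dusp2 was called higher in TET2-KO B-2 cells (2.43, adjusted p = 0.028), and with B-2 WT 4 as the only one it was not (-0.22). Jun in B-2 cells was at 58.9 and 60.5 CPM in WT and 9.13 to 51.7 CPM in TET2-KO libraries (log2 fold change -1.10, SE 0.52, adjusted p = 0.53). Without B-2 WT 1 it was -1.11 (SE 0.62). In B-1a and B-1b cells Jun gave 0.23 and -0.08, and -0.34 and -0.45 without WT 1 and WT 2, a change of sign in B-1a cells. Junb and Ier2 differed by at most 0.34 in size on the log2 scale in any subset with all libraries (SEs of 0.14 to 0.29). Without WT 1 and WT 2, Junb gave -0.18 in B-1a, where it had been 0.23, 0.07 in B-1b and -0.38 in B-2 cells, and Ier2 gave -0.33, -0.12 and -0.27. Fosb, the FOS-related AP-1 subunit gene, gave 0.30 in B-1a, -1.03 in B-1b and -0.97 in B-2 cells, and -0.42, -1.41 and -1.48 without WT 1 and WT 2. None of these values passed.

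**Figure D5:**
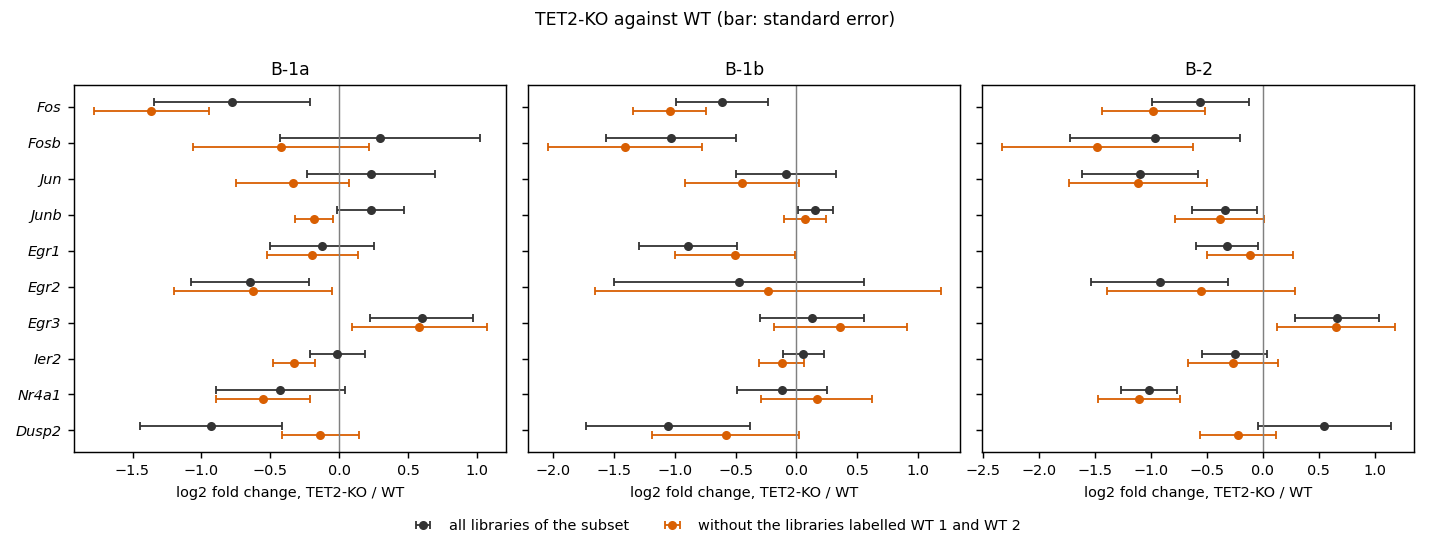
Log2 fold changes of TET2-KO against WT (horizontal axes, bars for standard errors) of the 10 genes in each subset, with all libraries and without those labelled WT 1 and WT 2. None of the values has an adjusted p under 0.05, and Fos is below 0 in all 3 subsets in both fits.

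Other genes of the pathway were read from lists of 39 further immediate early genes, 12 genes of feedback on ERK and EGR signaling, 16 NF-kappaB and activation genes, 17 upstream factors and kinases and 11 heat shock genes. In TET2-KO B-1a against B-2 cells, 6 of the 32 further immediate early genes tested rose and 0 fell, where 3.26% of all genes rose and 2.57% fell. Atf3, a bZIP factor gene of the stress response, rose by 2.50 on the log2 scale (SE 0.36, adjusted p = 0.00057), from 4.90 to 15.7 CPM in B-2 to 31.7 to 91.9 CPM in B-1a libraries. Myc rose by 1.49, the CREB pathway kinase gene Sik1 by 1.44 and the pseudokinase gene Trib1 by 1.19. The list's median was 0.01, against -0.05 over all genes, so the called members are balanced by others with negative values.

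The phosphatase genes that share the MAP kinase substrates of Dusp2 went in both directions. Of 10 feedback genes tested in B-1a against B-2 cells, 3 rose and 1 fell. Dusp10, whose product acts on JNK and p38, rose by 2.14 (SE 0.23, adjusted p = 3.1e-05), from 7.99 to 12.8 CPM in B-2 to 32.4 to 64.5 CPM in B-1a libraries. Dusp5, whose product acts on nuclear ERK, rose by 1.94 (SE 0.34, adjusted p = 0.0023), and Nab2, a corepressor of EGR factors, by 1.06 (SE 0.26, adjusted p = 0.026). Dusp4 fell, with 20 to 25 counts per library in B-2 and at most 1 in B-1a libraries (adjusted p = 0.014). In B-1b against B-2 cells Dusp10 rose by 1.79 and Dusp5 by 1.66, Dusp4 fell and Atf3 rose by 2.29, 2 up and 1 down among 10 feedback genes and 1 up among 32 further immediate early genes, where 1.52% of all genes rose and 0.631% fell. The activation gene Il2ra rose by 1.99 in B-1a cells (adjusted p = 0.015), 1 of 14, and the small heat shock gene Hspb1 rose in both comparisons, by 2.07 and 2.90, 1 of 11 in each. Of the upstream factors and kinases, 0 of 17 passed in any of the 8 comparisons.

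Between TET2-KO and WT cells, none of the list genes passed in any subset, with or without WT 1 and WT 2. The closest were mixed in direction. Cd69, an early activation antigen gene, gave -1.73 in B-1a (unadjusted p = 0.020, adjusted p = 0.59) and -1.20 in B-1b cells (unadjusted p = 0.018, adjusted p = 0.84). Dusp1, which encodes the phosphatase most often induced together with Fos, gave -0.81 in B-1a, -0.74 in B-1b and -0.64 in B-2 cells. Without WT 1 and WT 2, Cd69 gave -1.39 and -0.95 in the B-1 subsets, and Dusp1 gave -1.23, -1.02 and -1.18. In B-2 cells all 11 heat shock genes had negative values, with a median of -1.02 against 0.18 over all genes. Of these, 8 had an unadjusted p under 0.05, against 1754 of all 19786 genes, and none passed (edgeR, smallest adjusted p = 0.53). The same list had a median of -0.13 in B-1a cells, with 8 of 10 negative. In B-1b cells its median was -0.76, with 10 of 11 negative and 6 at an unadjusted p under 0.05, against 787 of all 14368 genes. Without WT 1 and WT 2 the medians of the list were -0.39 in B-2, -0.12 in B-1a and -0.11 in B-1b cells. In each B-1 subset 2 of 11 were then at an unadjusted p under 0.05. The share of all genes at that cutoff is not given for these fits.

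The genes whose pattern over the 21 libraries was most like that of the 10 members were found by Pearson correlation of log2 CPM with the mean of the centred log2 CPM of the members, among genes with a median of at least 10 CPM. They were Dusp1 (r = 0.89), Actr1b (0.79), Fem1c (0.78), Tamm41 (0.77), Cd300lb (0.76) and Arsa (0.75), and 0.94, 0.78, 0.82, 0.72, 0.85 and 0.77 over the 16 libraries without WT 1 and WT 2. Dusp1 was at 40.3 to 77.6 CPM in the WT libraries numbered 3 and 4 and at 9.80 to 53.3 CPM in TET2-KO libraries. These correlations describe libraries that share depth, handling and cell composition. Among the members, over the 16 libraries, the closest pairs were Jun with Ier2 (0.86), Junb with Ier2 (0.86) and Jun with Junb (0.80), and Egr3 ran against Jun (-0.75), Fos (-0.63) and Ier2 (-0.62). Dusp2 had no correlation above 0.5 in size with another member.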

How the data were processed

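For each of the 21 libraries, the authors deposited raw counts of fragments on 56953 genes, as whole numbers without normalization. Per the methods, fastp trimmed the reads, STAR placed them on GRCm39 and featureCounts 1.6.1 assigned them to GENCODE vM32 genes without regard to strand. The paper describes amplified full-length cDNA and the labels poly-T selection, so the preparation is not certain. Groups came from the labels, which do not say whether libraries of different subsets are from the same mouse, and p-values measure the spread between these libraries. Symbols were matched through GENCODE vM39 for 56310 genes.

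The test was edgeR 4.0.16's robust quasi-likelihood test (with limma 3.58.1 under R 4.3.3), after filterByExpr and TMM normalization, at 0.05 after Benjamini-Hochberg adjustment over all genes tested. All 10 members passed the filter in each of the 8 comparisons. TET2-KO and WT were compared within each subset, the 3 TET2-KO subsets in 1 fit of 11 libraries, WT B-1a with B-1b, and the TET2-KO effects of B-1a and B-1b by an interaction. CPM use TMM-scaled library sizes over 21 libraries, and descriptions on the log2 scale add 0.5 CPM. Scripts were tested on simulated counts. Alternatives were DESeq2 1.42.0, no count filter, at least 10 counts in every library, RLE size factors, TMM without immunoglobulin genes, thinned counts, all 21 libraries in 1 fit, a block for the label number, omission of each library, and the fits without WT 1 and WT 2. The fit of 16 libraries and the block of genotype and number were chosen after seeing the data.

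TET2-KO libraries with 1 number deviated together from their group means. Over 7950 genes the correlation was 0.34 to 0.70 in the 4 pairs of B-1a and B-2 and 0.23 to 0.49 in the 3 pairs of B-1a and B-1b, so these numbers were taken as pairs on the evidence of the data. It was 0.04 to 0.48 in the 3 pairs of B-1b and B-2 and -0.25 to 0.31 in the 4 pairs of WT B-1a and B-1b, which were not. These ranges overlap, so the split is not firm. The block was fitted to all TET2-KO libraries at once and so also enters the comparison of B-1b with B-2 cells.

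The members and all gene lists were chosen with earlier results of these data known. In each comparison the 10 members were named, with at most 4 rising and 4 falling genes of a list, those with the largest change among the passing, or at most 2 with the smallest unadjusted p where none passed. The 5 libraries in doubt were identified from Fcer2a and Cd5, and single comparisons of gene values outside these rules were chosen after their values were seen. Promoter windows came from the GRCm39 genome and GENCODE vM39, for the 7 members with an entry in the RefSeq promoter table. Entries for Egr1, Egr3 and Ier2 were not used here. The values of 1 gene of the upstream list are not reported here.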

Additional observations from a re-analysis of the deposited data

Results flagged for a closer look

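In 40 pairs of a member and a group of 4 libraries, a library far from the other 3 was found in 4, where chance flags about 1 in 20 groups. Jun was at 112.6 CPM in the library labelled B-1a TET2-KO 1, against 40.0 to 48.9 CPM in the other 3. Dusp2 was at 47.6 CPM in the library labelled B-1a WT 1, against 8.98 to 11.3 CPM. Egr3 was at 5.89 CPM in the library labelled B-1b WT 1, against 3.12 to 3.49 CPM. Nr4a1 was at 9.62 CPM in the library labelled B-2 TET2-KO 1, against 6.68 to 7.05 CPM. B-1a WT 1 and B-1b WT 1 are among the libraries that went against their subset labels, and the rate of 1 in 20 assumes groups of like libraries. The causes were not tested. No member's TET2-KO effect differed between B-1a and B-1b cells by the interaction test.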

How the results depend on the processing

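Of 155 counts of called members under alternatives, 151 equalled the reported count. In TET2-KO B-1a against B-2 cells, the fit with the label number as a block called 2 members in place of 1, adding Jun. This pairing changed no other call of a member. All 21 libraries in 1 fit called 0 in place of 1 in TET2-KO B-1b against B-2 cells, where Dusp2 kept a log2 fold change of -2.39. Without the libraries labelled WT 1 and WT 2, 1 member in place of 0 was called in WT B-1a against B-1b cells. Leaving out 1 library gave 0 to 1 in TET2-KO against WT B-2 cells, with Dusp2 called without B-2 WT 4, and no change elsewhere. Dusp2 was called in 20 of 20 alternatives in B-1a against B-2 cells (log2 fold change -2.90 to -2.65) and in 19 of 20 in B-1b against B-2 cells (-2.74 to -2.02). The causes of these changes were not tested. Of 1542 member fold changes under alternatives, 132 had the other sign, all called in neither fit.

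Counts over all genes moved more. Calls in TET2-KO against WT cells were 7 in B-1a, 0 in B-1b and 0 in B-2 cells, 318, 131 and 167 without a count filter, and 189, 60 and 169 by DESeq2. In B-1a cells they were 48 under the block, 80 in the fit of 21 libraries, 42 in that of 16, and 0 without WT 1 and WT 2, and 0 to 6 with 1 library left out. There the block joins WT and TET2-KO libraries of 1 number, which come from different mice. Their deviations from the group means had correlations of -0.17 to 0.31, so this block has no basis as a pairing. In B-2 cells leaving out WT 4 gave 576. TET2-KO B-1a against B-2, B-1b against B-2 and B-1a against B-1b cells had 1080, 399 and 38 calls, and 1699, 870 and 123 without a filter, 3478, 2872 and 141 by DESeq2, 1638, 667 and 103 under the block, 780, 7 and 6 with 21 libraries and 1546, 671 and 53 with 16. With 1 library left out they ran from 608 to 2015, 177 to 768 and 15 to 57. WT B-1a against B-1b cells had 0 calls, 27 without a filter, 1 by DESeq2, 2 under the block, 8 in the fit of 16 and 500 without WT 1 and WT 2. The interaction had 0, 144 without a filter, 1 by DESeq2 and 1 with genotype and number as a block. With 2 to 4 libraries a group and 0 to 91 counts of Egr2, small differences were not detectable at this depth.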
